A study of Mus musculus with 6 samples.

Results

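The genes described here are 35 known targets of the hypoxia-inducible factors (HIFs), taken from a list of gene symbols that leaves out Vegfa, Slc2a1 and Car9, the genes of the study's hypoxia score, and the genes of the HIF machinery itself. All 35 were found among the 47643 gene identifiers of the count files, with Ero1l under the symbol used by GENCODE M21, and 33 of them passed the filter on low counts, which kept 12560 genes. They were measured in CD45-EPCAM+ tumor cells sorted from 6 breast tumors of the MMTV-PyMT model, strain FVB/N-Tg (MMTV-PyVT)634Mul/J, a transgenic line in which a mammary tumor virus promoter drives the polyoma middle T antigen in the mammary epithelium. All the mice were given B20-4.1.1, which blocks VEGF-A, at 5 mg/kg into the peritoneum, 2 times per week for 6 weeks from 7 weeks of age, and no untreated tumor was analysed here. The labels place the 6 tumors in a single group, so each tumor is reported by its number. The study sorts treated tumors into low-hypoxia and high-hypoxia classes, but the labels do not say which class each tumor belongs to, and the classes were not compared here. Each sample carries its own mouse identifier in the labels.

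HIFs are transcription factors made of an oxygen-labile alpha subunit and a stable partner, ARNT. When oxygen is present, prolyl hydroxylases of the Egln family mark the alpha subunit for VHL-dependent degradation, and when oxygen is scarce the subunit persists and binds short hypoxia response elements near its targets. The targets shift cells from respiration to glycolysis, remove mitochondria, modify collagen, dilate vessels and feed back on the HIF pathway, and in solid tumors they are a common transcript readout of poorly perfused regions.

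Libraries were made with QuantSeq FWD, a 3′ method that reads near the polyadenylated end, and held 2509482 to 5893246 counts on genes. A level of 3 counts, used as the floor of detection, corresponds to 0.509 to 1.20 CPM (counts scaled by the library's total on genes), and covers counting error only. Tumor 1 gave the library least like the rest. Its median r with the others, over 8873 genes, was 0.788, whereas the other 5 had values of 0.905 to 0.939. Luminal epithelial markers, of which Epcam is a marker of the sort, summed to 3957 to 4874 CPM. The study also describes the sorted tumor cells as negative for CD31 and PDGFRα. Endothelial markers summed to at most 4.12 CPM, with Cdh5, Tek and Emcn at or under 3 counts in every tumor, and the 4 adipocyte markers were at or under 3 counts throughout. Leukocyte markers summed to 104 to 305 CPM, and erythroid markers to 5.66 to 864 CPM, the highest in tumor 3. Of the leukocyte sums, S100a8 alone held 73.8 to 230 CPM, and Lyz2 held 148 CPM in tumor 3. Ptprc, the gene of CD45, lay at 0.797 to 3.39 CPM. In bulk RNA of this kind, fewer cells of a type and less RNA per cell cannot be told apart.

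The core of the hypoxia response element is a short motif, so the promoters of the members are shown before their values. RefSeq promoters on GRCm38.p6, which run from 250 bases before to 50 bases after a transcription start, matched 27 of the 35 genes, with 40 promoters between them. Both strands were searched for ACGTG and for GCGTG. The first of these was present in 47.5% of the members' promoters, against 19.6% of all 32851 promoters and 25.4% of the 11934 promoters of tested genes. The second was present in 65% of them, against 32.4% of all and 51.2% of those of tested genes. Either motif was present in 77.5% of the members' promoters, against 43.8% of all and 62.6% of those of tested genes, and of the 27 matched genes Gbe1 and Vldlr held neither. The first 5 sequences below are 150 bases upstream of a start, chosen to show how the motifs are placed, and the sixth is the promoter of Gbe1 without a match. P4ha2, P4ha1, Adm and Ak4 are among the 8 members with the smallest p in the score fit below, and Bnip3 is not. Of the rest of those 8, Plod2 and Ndrg1 were not matched to a promoter. Fam162a, with 1 ACGTG and 4 GCGTG in the same stretch, and Kdm3a, with 1 GCGTG, are not shown. Capitals mark ACGTG or GCGTG on either strand, which read CACGT and CACGC where the match lies on the opposite strand.
P4ha2, chr11:54100774-54100923, plus strand: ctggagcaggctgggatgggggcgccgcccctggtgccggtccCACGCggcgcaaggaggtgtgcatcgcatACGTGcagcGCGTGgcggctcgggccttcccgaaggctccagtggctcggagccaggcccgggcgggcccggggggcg
P4ha1, chr10:59323146-59323295, plus strand: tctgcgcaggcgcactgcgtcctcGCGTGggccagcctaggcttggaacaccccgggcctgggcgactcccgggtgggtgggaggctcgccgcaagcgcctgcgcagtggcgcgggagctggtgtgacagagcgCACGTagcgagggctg
Adm, chr7:110627507-110627656, plus strand: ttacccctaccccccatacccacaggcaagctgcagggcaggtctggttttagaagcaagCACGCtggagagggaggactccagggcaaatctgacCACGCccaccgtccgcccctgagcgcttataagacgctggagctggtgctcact
Ak4, chr4:101419139-101419288, plus strand: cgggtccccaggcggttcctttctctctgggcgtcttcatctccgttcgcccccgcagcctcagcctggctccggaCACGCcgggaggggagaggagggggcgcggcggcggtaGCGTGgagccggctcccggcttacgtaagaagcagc
Bnip3, chr7:138909507-138909656, minus strand: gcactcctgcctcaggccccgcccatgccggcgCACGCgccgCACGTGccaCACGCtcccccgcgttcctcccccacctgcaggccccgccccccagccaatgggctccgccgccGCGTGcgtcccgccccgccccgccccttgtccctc
Gbe1, chr16:70313799-70313948, plus strand: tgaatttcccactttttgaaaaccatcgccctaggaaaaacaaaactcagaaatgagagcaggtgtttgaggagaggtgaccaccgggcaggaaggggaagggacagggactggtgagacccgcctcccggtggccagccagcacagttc
In these stretches the matches of P4ha2 began 107, 78 and 69 bases before the start, and those of P4ha1 began 126 and 16 bases before it. Bnip3 held the palindrome of CACGT and ACGTG at 108 bases before the start, with GCGTG matches on both sides. Adm and Ak4 held 2 GCGTG matches each and no ACGTG in the stretch shown. A match is a description of the letters and was not tied to binding in these tumors.

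The 35 genes spanned a wide range of levels in the sorted tumor cells. Per length of transcript (TPM, median of 6 tumors), Ier3, a stress-inducible survival gene, was highest at 3352 TPM, followed by Cited2 at 586 TPM, Ddit4 at 247 TPM and Fam162a at 238 TPM. Reads of a 3′ method depend little on transcript length, so an order per length favors short transcripts. Lox, the enzyme that cross-links collagen and elastin, reached at most 3 counts, and Tmem45a, a transmembrane protein gene, at most 2 counts, and both failed the filter. Neither was detectable above the floor at this depth. Summed over the 35 genes, the level was 3050 CPM in tumor 3, the lowest, and 4998 CPM in tumor 4, the highest. Ier3 alone held 953 to 2278 CPM of these sums.

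**Figure D1:**
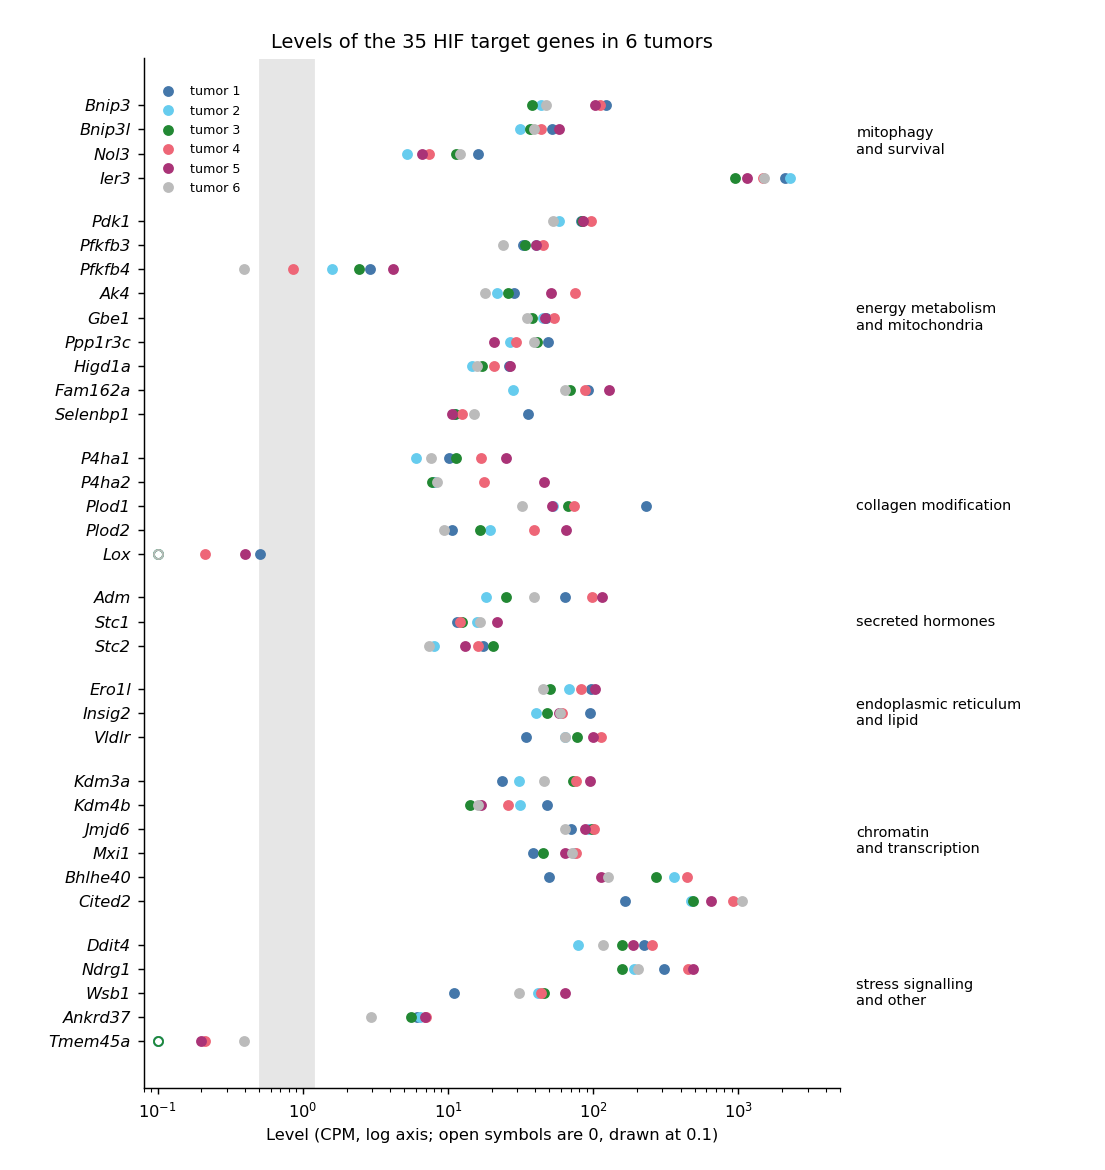
Levels of the 35 HIF target genes in CPM (log axis) for each of the 6 tumors, 1 colored point per tumor, grouped by role, with the span of the 3-count floor shaded in gray. Ier3 lies between 953 and 2278 CPM at the right, while Lox and Tmem45a lie at or under the floor, and Plod1 has a single tumor at 232 CPM far from the others.

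The members varied between tumors by about as much as other genes or somewhat more. The biological coefficient of variation, the spread beyond counting error as edgeR estimates it, had a median of 39.7% over the 33 genes against 36% over all genes tested. Above the trend for genes of their abundance were 18 of the 33, against 33.7% of all genes. P4ha2 varied most at 59.2% and Gbe1, the glycogen branching enzyme, least at 26.6%. Without tumor 1 the median of the members was 30.6%. The median of all genes without tumor 1 is not given here, so this fall is not shown to be particular to the members.

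The question these data allow is whether the members followed the study's own transcript measure of hypoxia, the mean TPM of Vegfa, Slc2a1 and Car9, from tumor to tumor. In tumors 1 to 6 it took the values 48.5, 37.2, 51.4, 76.6, 94.4 and 47.3 TPM. Tumors 4 and 5 thus lay above the other tumors, which spanned 37.2 to 51.4 TPM. Slc2a1 weighs most in this mean, at 69.1 to 151 TPM, against 21.7 to 81.4 TPM for Vegfa and 9.81 to 50.6 TPM for Car9. Tumors 4 and 5 were highest in each of the 3 genes. Tumor 1 was lowest in Vegfa and Car9 but had 114 TPM of Slc2a1, so its place in the score came from Slc2a1. For every gene, edgeR's quasi-likelihood test gave the slope of its log2 level on log2 of the score, which is the log2 change per doubling of the score, with Benjamini-Hochberg adjustment over the 12560 genes. No gene of the 12560 passed an adjusted p of 0.05 (0% in either direction). By DESeq2's Wald test 0 members passed as well, where 0.135% of all genes did with a slope above 0 and 0.0159% with a slope below 0. At an unadjusted p under 0.05, 8 of the 33 members (24.2%) had a slope above 0, where 2.56% of all genes did, and 0 members had a slope below 0, where 1.74% of all genes did. The 8 were P4ha2, P4ha1, Adm, Plod2, Ak4, Ndrg1, Kdm3a and Fam162a. Of these, Adm, Plod2, Ndrg1 and Fam162a overlap an annotated gene on the other strand, as does Bnip3, and the strand setting of the counting is not given in the sources used here. The median slope was 0.42 over the members and −0.04 over all genes, and 26 of the 33 members had a slope above 0 against 46.8% of all genes. The members' median was 0.28 without tumor 5 and 0.23 with the geometric mean of the 3 genes' CPM as the score, where that of all genes was −0.04 and −0.03.

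This count depended on tumor 5, the tumor with the highest score, and so did the share of all genes. Without tumor 5, the members lost from the count kept slopes of 1.10 to 1.36. In that fit 2 members, Ak4 and Adm, had an unadjusted p under 0.05 with a slope above 0, where 0.356% of genes did. Without tumor 1 there were 10, Bnip3 and Ddit4 being added, where 4.32% of genes did. Without tumor 2 there were 6, Kdm3a and Fam162a being lost, where 2.09% of genes did, and 2 members had a slope below 0, where 1.46% of genes did. Those 2 were Ppp1r3c, at −1.05 (edgeR, unadjusted p = 0.0228), and Nol3, at −1.13 (edgeR, unadjusted p = 0.0431). Without tumor 4 there were 7, Ndrg1 being lost, where 2.21% of genes did. The mouse identifiers in the labels have 2 prefixes, QAF for tumors 1, 4, 5 and 6 and QSD for tumors 2 and 3, and the prefix as a term in the fit left 6 members with a slope above 0, where 1.99% of genes did. These were P4ha2, P4ha1, Plod2, Kdm3a, Adm and Ak4, and Selenbp1 then had a slope below 0 at an unadjusted p under 0.05, where 2.41% of genes did. What the prefixes stand for is not given in the sources used here, and the QSD prefix holds too few tumors for a value of its own.

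**Figure D2:**
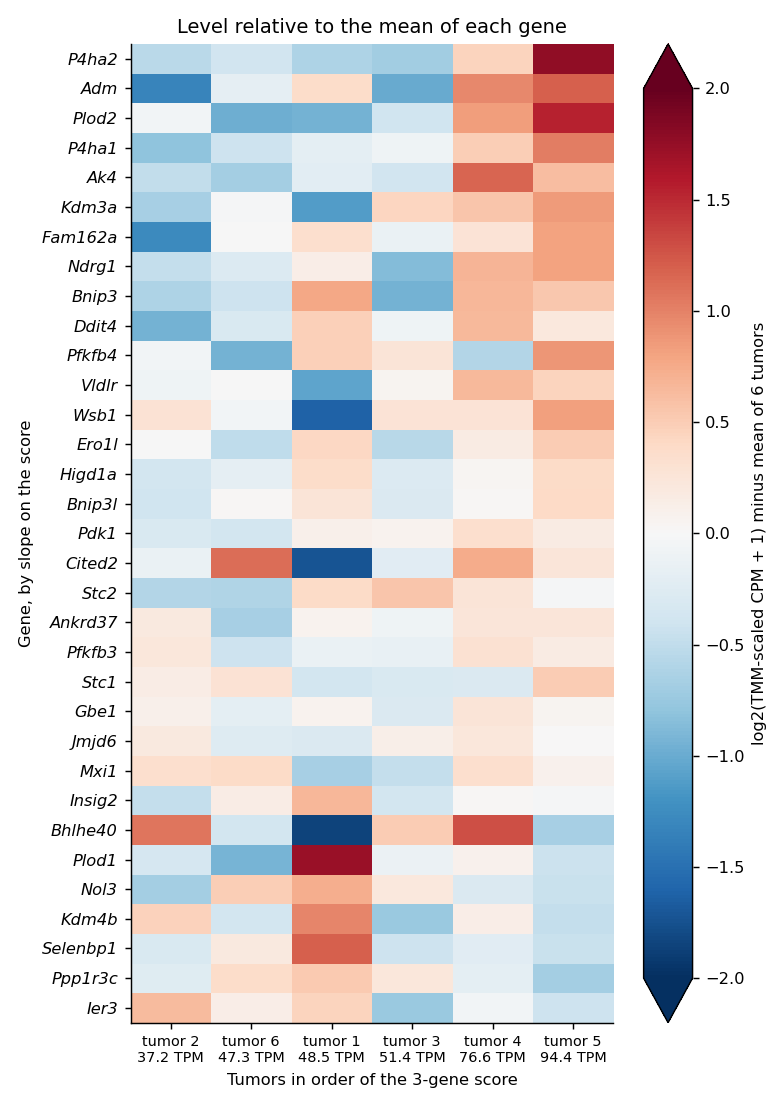
Level of each of the 33 tested genes relative to its own mean over the 6 tumors, as a log2 difference (color), with tumors ordered by the 3-gene score in TPM and genes by their slope. The upper genes are red in tumors 4 and 5 and mostly blue in tumors 2, 3 and 6, while tumor 1 holds both strong reds, as in Plod1, and strong blues, as in Bhlhe40 and Cited2.

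Seen by tumor, 27 of the 33 members lay above their own mean in tumor 4, 24 in tumor 5 and 20 in tumor 1. In tumors 2, 3 and 6 the number was 9 to 10. Between 47.3% and 52.1% of all tested genes lay above their mean in any tumor. Tumor 5 held the highest value of 13 members and tumor 4 that of 9, where 17.1% and 9.72% of all genes had theirs. Tumor 1 held the highest value of 7 members and the lowest of 8, where 32.4% and 30.8% of all genes had theirs. The mean log2 level of the 33 genes had r = 0.921 and rho = 0.829 with log2 of the score, given as a description, and r = 0.367 without tumors 4 and 5, so that relation rested on those tumors.

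**Figure D3:**
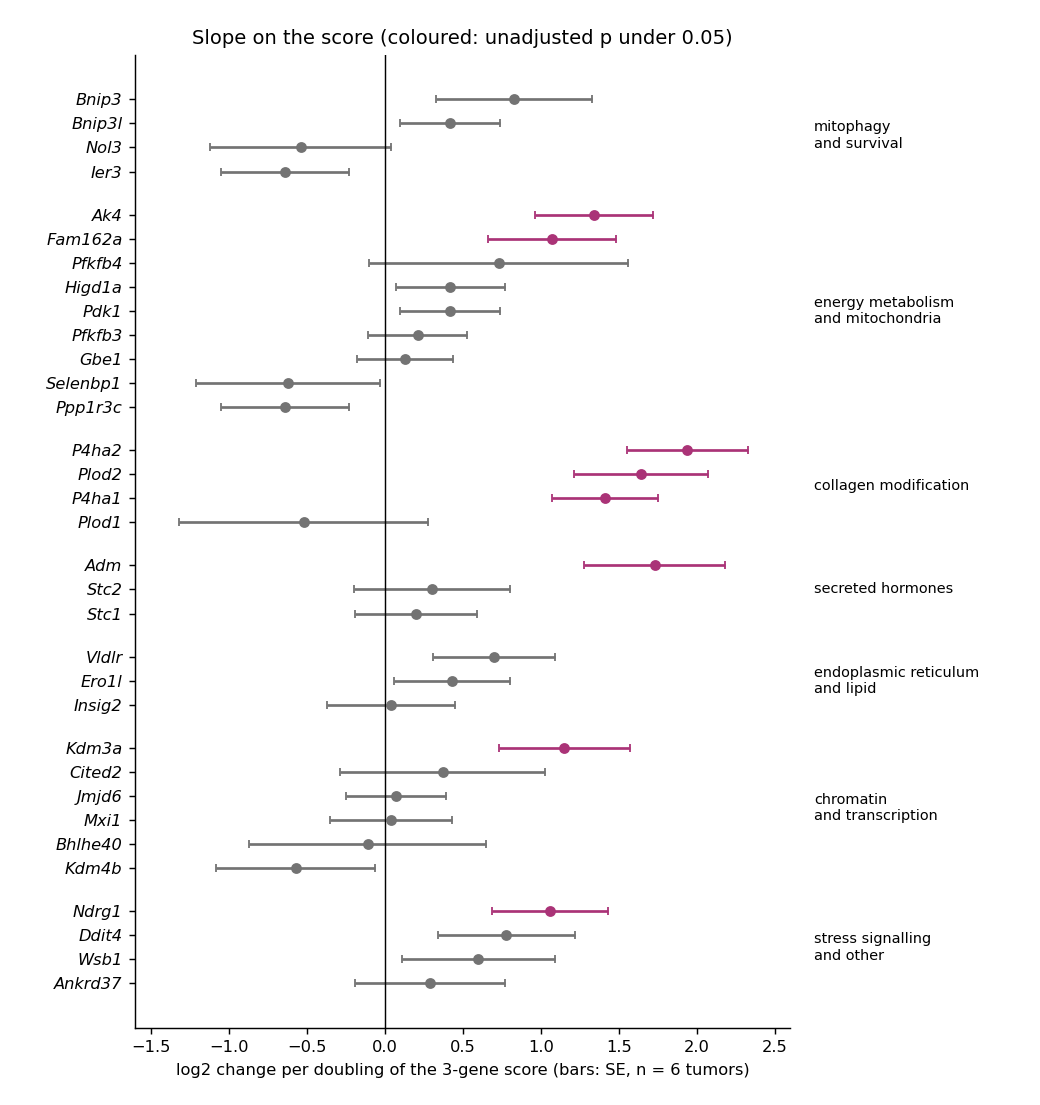
Slope of each tested gene on log2 of the 3-gene score (points, with bars of 1 SE over 6 tumors), grouped by role, with genes at an unadjusted p under 0.05 colored. The collagen hydroxylase genes P4ha2, Plod2 and P4ha1, with slopes of 1.41 to 1.94, lie far to the right of Plod1 at −0.52.

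Among genes of collagen modification, 3 of the 4 tested members had an unadjusted p under 0.05, and the median slope of the 4 was 1.52. P4ha1 and P4ha2 encode the catalytic subunits of collagen prolyl 4-hydroxylase, which stabilizes the collagen triple helix. P4ha2 (chr11:54100095-54131665 on GRCm38) was 7.98, 7.97, 7.76, 17.7, 46.1 and 8.39 CPM in tumors 1 to 6. It was near 8 CPM in 4 tumors and higher in tumors 4 and 5. Its slope was 1.94 ± 0.39 (SE), or 3.83-fold per doubling of the score (edgeR, unadjusted p = 0.000606, adjusted p = 0.433). Without tumor 5 the slope was 1.13 (unadjusted p = 0.104). P4ha1 (chr10:59323296-59373304) was 10.2, 5.98, 11.4, 17, 25 and 7.61 CPM in tumors 1 to 6, in the same order of tumors as the score in TPM. With the score as mean CPM or as the geometric mean of CPM, tumor 6 lay above tumor 1, so the order was not the same. The slope of P4ha1 was 1.41 ± 0.34 (edgeR, unadjusted p = 0.00219, adjusted p = 0.725), and 1.36 to 1.45 with each tumor left out. It was 1.01 with the geometric mean score (edgeR, unadjusted p = 0.00377).

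Plod1 and Plod2 encode lysyl hydroxylases, whose products set the kind of cross-link that collagen forms. Plod2 (chr9:92542223-92608428) was 10.7, 19.5, 16.7, 39.4, 64.9 and 9.37 CPM in tumors 1 to 6. Tumors 4 and 5 were again the high ones, and tumors 1 and 6 were low. The slope of Plod2 was 1.64 ± 0.43 (edgeR, unadjusted p = 0.00385, adjusted p = 0.896), and ran from 1.20 without tumor 5 (unadjusted p = 0.106) to 2.62 without tumor 2 (unadjusted p = 0.00011). Plod1 had a different profile, at 232 CPM in tumor 1, against 32.2 to 74 CPM elsewhere. Its slope of −0.52 ± 0.80 (edgeR, unadjusted p = 0.528, adjusted p = 0.956) was 0.20 without tumor 1. Fibroblast markers, from cells that make most stromal collagen, summed to 15.3 to 26.4 CPM with the highest value in tumor 3, and 0 of their 5 tested genes had an unadjusted p under 0.05. The sum of basal epithelial markers was highest in tumor 5, at 534 CPM against 171 CPM in tumors 2 and 3. Of the markers, 5 of 6 were tested, all with slopes above 0. Among them Krt17, a basal keratin, had a slope of 1.96 ± 0.37 (edgeR, unadjusted p = 0.000386, adjusted p = 0.419) and 127 CPM in tumor 5. Krt14 was also highest there, and with Krt17 made up most of the sum. The other markers were not highest in tumor 5. Krt5 and Trp63 were highest in tumor 4, Mylk in tumor 1 and Acta2 in tumor 3. The part of basal cells in the collagen genes' values was not tested.

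Of the 9 genes of energy metabolism and mitochondria, 7 had a slope above 0 and 2, Ak4 and Fam162a, an unadjusted p under 0.05. Ak4 (chr4:101419277-101466995), an adenylate kinase of the mitochondrial matrix, was 28.3, 21.9, 25.9, 74.9, 51.1 and 18 CPM in tumors 1 to 6. Tumors 4 and 5 lay above the others, which were at 18 to 28.3 CPM. Its slope was 1.34 ± 0.38 (edgeR, unadjusted p = 0.00593, adjusted p = 0.951), and it was 1.79 without tumor 5 (unadjusted p = 0.00781). Fam162a (chr16:36043761-36071594), a mitochondrial protein that promotes cell death under hypoxia, was 92.3, 27.9, 68.9, 87.6, 128 and 64.4 CPM in tumors 1 to 6. Tumor 5 was high and tumor 2 low, with tumors 1 and 4 close together. The slope of Fam162a was 1.07 ± 0.41 (edgeR, unadjusted p = 0.0254, adjusted p = 0.951), and 0.78 with the prefix as a term (unadjusted p = 0.114). It was 0.67 without tumor 2 (unadjusted p = 0.116) and 0.62 with the geometric mean score (unadjusted p = 0.0838).

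Pfkfb3 and Pfkfb4 encode enzymes that make and break down fructose-2,6-bisphosphate, an activator of glycolysis. Pfkfb3 ranged from 23.8 CPM in tumor 6 to 45.1 CPM in tumor 4, with a median of 37 CPM and a slope of 0.21 ± 0.32, which ran from 0.09 without tumor 4 to 0.60 without tumor 2. Pfkfb4 was at most 4.19 CPM, in tumor 5, with 2 to 21 counts per tumor, and its slope of 0.73 ± 0.83 was −0.88 without tumor 5. At these counts its direction was not detectable. Pdk1, which restrains the entry of pyruvate into mitochondria, lay between 52.7 CPM in tumor 6 and 97 CPM in tumor 4. Higd1a, a mitochondrial inner membrane protein, lay between 14.7 and 26.8 CPM. The glycogen genes Gbe1 and Ppp1r3c, a glycogen-targeting subunit of protein phosphatase 1, lay at 34.8 to 53.6 CPM and 20.8 to 49.2 CPM. Ppp1r3c was lowest in tumor 5, the tumor with the highest score, and Gbe1 highest in tumor 4. Selenbp1, a methanethiol oxidase, was 35.3 CPM in tumor 1, against 10.6 to 15.2 CPM elsewhere. Selenbp2 shares 51.4% of the 50-base windows at its 3′ end (the last 300 bases), so the counts of Selenbp1 are uncertain.

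Adm, the precursor of the vasodilator peptide adrenomedullin, was the 1 gene of the 3 secreted hormones with an unadjusted p under 0.05. The gene (chr7:110627661-110629820) was at 64.1, 18.3, 25, 97.8, 115 and 38.9 CPM in tumors 1 to 6, so tumors 4 and 5 were highest and tumor 1 came next. Its slope was 1.73 ± 0.45, or 3.32-fold per doubling of the score (edgeR, unadjusted p = 0.0033, adjusted p = 0.829). The slope was 2.01 without tumor 5 (unadjusted p = 0.0179), 1.11 with the prefix as a term (unadjusted p = 0.0206) and 1.03 with the geometric mean score (unadjusted p = 0.024). Stc1 and Stc2, the stanniocalcins, are glycoprotein hormones first described in fish, where they control calcium. Stc1 ranged from 11.5 to 21.8 CPM and Stc2 from 7.42 to 20.4 CPM, with slopes of 0.20 ± 0.39 and 0.30 ± 0.50. The highest tumor differed between them, tumor 5 for Stc1 and tumor 3 for Stc2.

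Of the 4 genes of mitophagy and survival, 0 had an unadjusted p under 0.05 and 2 had a slope above 0. Bnip3 and Bnip3l encode receptors on the outer mitochondrial membrane that deliver mitochondria to autophagy. Bnip3 was 122, 43.4, 37.8, 112, 103 and 47.1 CPM in tumors 1 to 6. Tumors 1, 4 and 5 were high and tumors 2, 3 and 6 low, with no tumor between 47.1 and 103 CPM. Tumor 1 was thus as high as tumors 4 and 5 without a high score, and the slope of 0.83 ± 0.50 (edgeR, unadjusted p = 0.127, adjusted p = 0.951) was 1.13 without it (unadjusted p = 0.00393). With the prefix as a term, the slope of Bnip3 was 0.21 (unadjusted p = 0.681). Bnip3l was 31.1 to 58.1 CPM, with a slope of 0.42 ± 0.32, or 0.18 with the prefix as a term. Ier3 was highest in tumor 2 and Nol3, a repressor of apoptosis, in tumor 1, at 16.1 CPM against 5.18 CPM in tumor 2.

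The 3 genes of the endoplasmic reticulum and of lipid handling had slopes above 0 and no unadjusted p under 0.05. Ero1l, the oxidase that drives disulfide bond formation, was highest in tumors 5 and 1, at 103 and 96.9 CPM, and lowest in tumor 6, at 45.1 CPM. Vldlr, a lipoprotein receptor, was highest in tumor 4 at 114 CPM and lowest in tumor 1 at 34.3 CPM. Insig2, which retains SREBP in the endoplasmic reticulum, was 95.4 CPM in tumor 1, against 40.2 to 60.6 CPM elsewhere.

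Among the 6 genes of chromatin and transcription, Kdm3a had an unadjusted p under 0.05. Kdm3a (chr6:71588972-71632990), a histone demethylase that needs oxygen, was 23.4, 30.7, 73, 76.6, 95 and 45.5 CPM in tumors 1 to 6. Tumors 3, 4 and 5 were high and tumors 1 and 2 low. Its slope was 1.15 ± 0.42 (edgeR, unadjusted p = 0.0209, adjusted p = 0.951), with an unadjusted p of 0.0724 without tumor 2. Kdm4b, of another demethylase subfamily, had its highest level in tumor 1, at 47.7 CPM, and its lowest in tumor 3, at 14.1 CPM. Cited2, a feedback inhibitor that competes with HIF for its coactivators, and Bhlhe40, a transcriptional repressor, were both lowest in tumor 1, at 166 and 49.7 CPM, and reached 1057 CPM in tumor 6 and 446 CPM in tumor 4. Mxi1, an antagonist of Myc, was 38.2 CPM in tumor 1, against 45.1 to 76.4 CPM elsewhere. Jmjd6, a hydroxylase of splicing factors, had a narrow range of 64.2 to 101 CPM.

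The 4 tested genes of stress signaling and other roles had slopes above 0, and Ndrg1 had an unadjusted p under 0.05. Ndrg1 (chr15:66929318-66969640), a stress-responsive gene that is commonly high in hypoxic cells, was 308, 192, 159, 451, 491 and 205 CPM in tumors 1 to 6. Tumors 4 and 5 were highest and tumor 1 next, as for Adm. Its slope was 1.06 ± 0.37 (edgeR, unadjusted p = 0.0184, adjusted p = 0.951), and 0.72 with the prefix as a term (unadjusted p = 0.152). With the geometric mean score it was 0.70 (unadjusted p = 0.0434). Ddit4, an inhibitor of mTOR signaling, was 78.5 CPM in tumor 2 and 254 CPM in tumor 4. Wsb1, an adaptor of a ubiquitin ligase, was 11 CPM in tumor 1, against 31 to 64.3 CPM elsewhere. Ankrd37, an ankyrin repeat protein, was 2.93 CPM in tumor 6, against 5.58 to 7.02 CPM elsewhere. Genes induced by tissue dissociation, a handling stress to which Ier3 can also respond, summed to 3149 to 5146 CPM with the highest value in tumor 6, and 0 of 10 had an unadjusted p under 0.05.

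**Figure D4:**
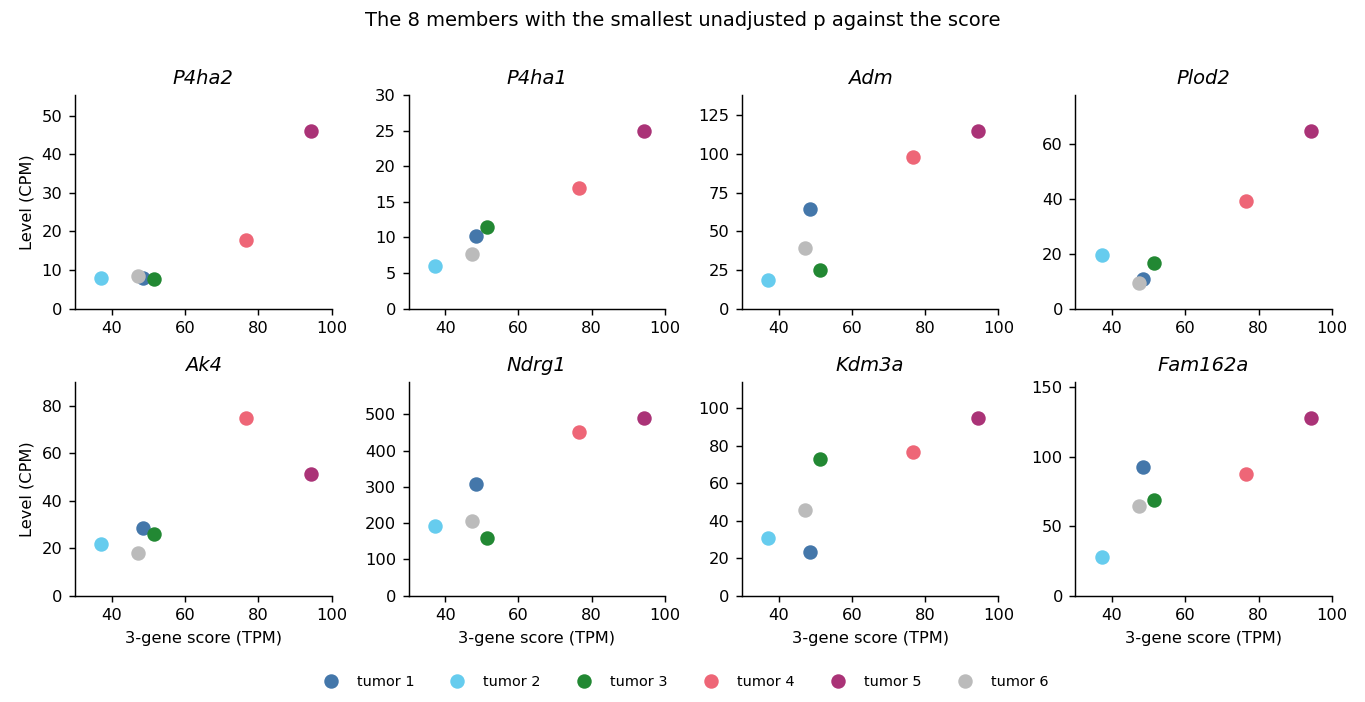
Level in CPM of the 8 members with the smallest unadjusted p against the 3-gene score in TPM, 1 point per tumor. P4ha1 follows this TPM score through all 6 tumors, from 5.98 to 25 CPM, while P4ha2, Plod2 and Ndrg1 are set apart by tumors 4 and 5 and show no such order among the other 4.

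Correlations with log2 of the score were also computed gene by gene. P4ha1 had r = 0.993 and rho = 1.000 (two-sided exact permutation p = 0.00139, the smallest that 720 orders of the tumors allow, and 0.00278 for rho, with an adjusted p of 0.963 and 0.954 over 12560 genes). Without tumors 5 and 4, the farthest from the median score, its r was 0.970 over the other 4. Even at the smallest permutation p, a gene could pass an adjusted p of 0.05 only if many others reached that p too. The adjusted permutation p-values therefore say little of any 1 gene, and the same holds for the pairs below. P4ha2 had r = 0.903 (exact permutation p = 0.025, adjusted p = 0.963) but rho = 0.486 (exact permutation p = 0.356, adjusted p = 0.954), and r = −0.310 without tumors 5 and 4. Plod2 had r = 0.821 and rho = 0.657 (exact permutation p = 0.0583 and 0.175, adjusted p = 0.963 and 0.954), and r = −0.633 without those tumors. The relations of P4ha2 and Plod2 did not hold without tumors 4 and 5. Without tumor 2 alone, r was 0.954 for P4ha2 and 0.993 for Plod2, and in the 4 tumors with the QAF prefix it was 0.956 and 0.999. Adm had r = 0.864 and rho = 0.829 (exact permutation p = 0.0403 and 0.0583, adjusted p = 0.963 and 0.954), and r = 0.518 without them. Fam162a had r = 0.815 and rho = 0.714 (exact permutation p = 0.0361 and 0.136, adjusted p = 0.963 and 0.954), and r = 0.898 without them. Ndrg1, Ak4 and Kdm3a had r of 0.774 to 0.852 (exact permutation p of 0.0458 to 0.0847, adjusted p = 0.963) and rho of 0.657 to 0.829 (exact permutation p of 0.0583 to 0.175, adjusted p = 0.954), with r of −0.033 to 0.417 without tumors 4 and 5. Over the 33 members the median r was 0.394, against 0.011 over all genes tested.

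The members differed in how they varied together. Over the 528 pairs of tested members, the median Pearson r of log2 levels over the 6 tumors was 0.200, against 0.000 over all pairs of genes tested, and 64.4% of pairs were above 0 against 50%. At r of at least 0.8 there were 38 pairs, or 7.20%, against 6.35% of all 78870520 pairs, a share near the background. The genes with the highest median r to the other members were Ero1l at 0.490, Ak4 at 0.489 and Bnip3 at 0.448. The lowest were Ppp1r3c at −0.379 and Nol3 at −0.245. Library, depth and the position of tumor 1 are shared by all pairs, and 122 of the 528 values of r changed sign without tumor 1. The share over all pairs of genes that changed sign was not computed. This count is therefore not shown to be particular to the members.

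**Figure D5:**
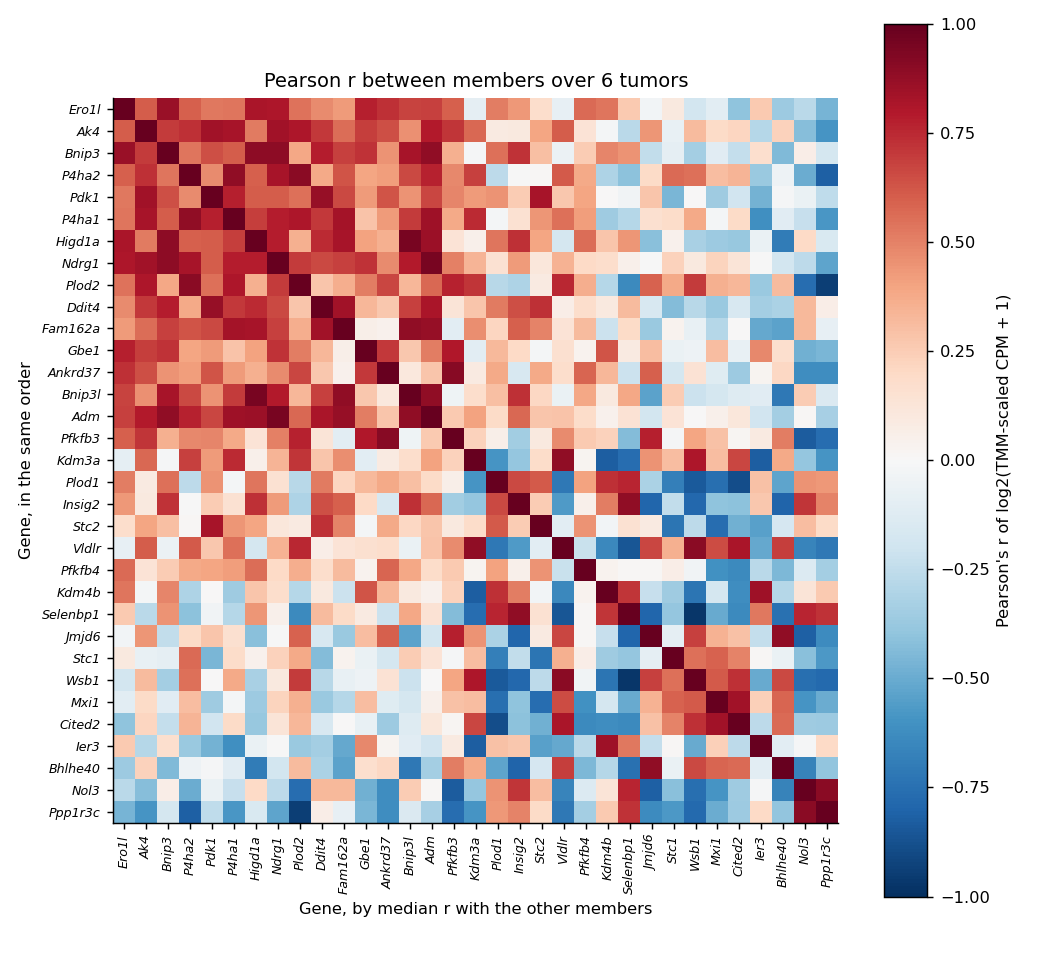
Pearson r between the log2 levels of each pair of the 33 tested genes over 6 tumors (color), with genes ordered by their median r to the others. This order itself gathers high values of r in the upper left, where the genes from Ero1l to Adm are mostly red. Some pairs there were near 0, as Fam162a with Ankrd37 at 0.041 and Gbe1 with Fam162a at 0.060. The red squares among Wsb1, Mxi1 and Cited2 toward the lower right did not all keep their sign without tumor 1, where r of Wsb1 was −0.247 with Mxi1 and −0.432 with Cited2.

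Of all pairs, Bnip3l and Higd1a, both mitochondrial membrane proteins, had the highest correlation, at r = 0.947 and rho = 1.000 (exact permutation p = 0.00694 and 0.00278, adjusted p = 0.614 and 0.830 over the 413919 pairs of a member with a tested gene). Their r was 0.893 without the 2 tumors farthest from the median of Bnip3l. Adm and Ndrg1 had r = 0.947 and rho = 0.943 (exact permutation p = 0.0125 and 0.0167, adjusted p = 0.628 and 0.846), and 0.998 without the farthest tumors. Pfkfb3 and Ankrd37 had r = 0.909 and rho = 0.943 (exact permutation p = 0.00417 and 0.0167, adjusted p = 0.614 and 0.846), and 0.882 without them. These pairs joined genes of different roles. Nol3 and Ppp1r3c, the members with the lowest median r to the rest, had r = 0.905 and rho = 0.943 with each other (exact permutation p = 0.0236 and 0.0167, adjusted p = 0.642 and 0.846), and 0.952 without the farthest tumors. Vldlr and Wsb1 had r = 0.905 but rho = 0.543 (exact permutation p = 0.0389 and 0.297, adjusted p = 0.662 and 0.949), r = 0.867 without the farthest tumors and 0.503 without tumor 1.

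At the other end, Selenbp1 and Wsb1 had r = −0.973 and rho = −0.829 (exact permutation p = 0.00556 and 0.0583, adjusted p = 0.614 and 0.884), with r = −0.617 without the farthest tumors. Ppp1r3c and Plod2 had r = −0.938 and rho = −0.886 (exact permutation p = 0.00556 and 0.0333, adjusted p = 0.614 and 0.878), with r = −0.822 without them and −0.925 without tumor 1. Plod1 and Cited2 had r = −0.884 and rho = −0.657 (exact permutation p = 0.0361 and 0.175, adjusted p = 0.659 and 0.936), with r = 0.492 without the farthest tumors and −0.470 without tumor 1. The last of these therefore rested on tumors 1 and 6.

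Paralogs of the list that share a biochemical role were compared as log2 ratios, a comparison added after the slopes were seen. P4ha1 and P4ha2 had r = 0.889 with each other and Bnip3 and Bnip3l r = 0.824, while Plod1 and Plod2 had r = −0.275 and Stc1 and Stc2 r = −0.727. Without tumor 1, r was 0.457 for Plod1 and Plod2 and −0.671 for Stc1 and Stc2. The log2 ratio of Plod2 to Plod1 ran from −4.32 in tumor 1 to 0.32 in tumor 5, so Plod2 exceeded Plod1 in tumor 5 and in no other tumor. Against the score this ratio had r = 0.595 and rho = 0.486 (exact permutation p = 0.204 and 0.356, unadjusted over 5 ratios), and r = −0.426 without tumors 4 and 5. The ratio of P4ha2 to P4ha1 was 0.86 in tumor 5 and −0.50 to 0.36 in the others. That of Bnip3 to Bnip3l was above 0 in all 6 tumors, from 0.05 to 1.33. For the other 4 ratios, r with the score was −0.126 to 0.462 (exact permutation p of 0.357 to 0.747).

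Genes next to the list in the pathway were read the same way. Of the 10 genes of the HIF machinery, 9 were tested, 6 had a slope above 0 and 2 had an unadjusted p under 0.05. These were the oxygen-sensing hydroxylases Egln3, with a slope of 1.16 ± 0.39 (edgeR, unadjusted p = 0.0137, adjusted p = 0.951), and Egln1, with 0.99 ± 0.37 (edgeR, unadjusted p = 0.0244, adjusted p = 0.951), both themselves HIF targets. Egln3 was 191 and 194 CPM in tumors 4 and 5, 147 CPM in tumor 1, against 65.4 to 77.8 CPM elsewhere, so tumors 1, 4 and 5 were the high ones, as for Bnip3. Of 15 glycolysis genes 14 were tested, with a median slope of −0.20, and 1, the lactate exporter Slc16a3, had an unadjusted p under 0.05 with a slope of 1.74 ± 0.59 (edgeR, unadjusted p = 0.0151, adjusted p = 0.951). Together the glycolysis genes reached 6221 CPM in tumor 1, against 2509 to 3306 CPM elsewhere. Levels within the list were very uneven. Gapdh lay at 2.04 to 25.6 CPM, Pgam1 at 2.18 to 10.9 CPM and Pgk1, the gene not tested, at no more than 1.8 CPM. Aldoa, by contrast, lay at 634 to 1988 CPM. The cause of these low counts was not tested, so the values of Gapdh, Pgam1 and Pgk1 are uncertain. Of 8 targets of ATF4, which shares stress-induced genes with HIF, 0 had an unadjusted p under 0.05 and the median slope was −0.14.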

How the data were processed

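Epithelial tumor cells of 6 mice were profiled. The authors trimmed reads with bbduk, aligned them with STAR 2.5 to GRCm38/mm10 and counted them with HTSeq. What they deposited is a raw count per gene and library. The annotation release, the strand setting of the counting and any collapsing of the 6-base molecular identifiers are not given in the sources used here, so members that overlap other genes are uncertain. The 5 lines per file that name no gene held 16.1 to 41.4% of reads and were left out. Symbols and union exon lengths came from GENCODE M21, and 47224 of 47643 identifiers matched.

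Genes were filtered with filterByExpr (minimum count 10, minimum total 15) and scaled by TMM (edgeR 4.0.16, R 4.3.3). Slopes on log2 of the score came from glmQLFit and glmQLFTest, with the 3 score genes left out, and SE is the slope over the root of F. The unadjusted p is given because no gene passed the adjusted threshold. Correlations used log2(TMM-scaled CPM + 1), with exact permutation p-values over 720 orders (Python 3.11.15, scipy 1.17.1). Alternatives were other scalings, scores and pseudocounts, DESeq2 1.42.0, no filter, the prefix term, and each tumor left out. The fit was tested on simulated data, where some genes were given a slope of 2 in either direction. At an adjusted p under 0.05 it recovered 31.5% of these genes, and 12.7% of its calls were false. A gene that did not pass is therefore not shown to lack a slope. No 2 libraries agreed within sampling noise (lowest chi-square per degree of freedom 20.7). A tumor was singled out by Dixon's ratio. The members and lists were chosen with earlier results of these data known. Named with values per tumor or slopes are the 8 members with the smallest p, 5 paralog pairs, members with a singled-out tumor, the 5 highest and 3 lowest pairs, and at most 4 genes of other lists by p. Some other genes of those lists are named outside this rule and not by p, such as Krt14, S100a8, Lyz2, Ptprc, Gapdh, Pgam1, Pgk1 and Aldoa. Levels of the other members are given as ranges. The CD45+ fraction was not analysed here.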

Additional observations from a re-analysis of the deposited data

Results flagged for a closer look

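In 5 of the 33 tested members (15.2%) a single tumor lay farther from the others than Dixon's 95% critical value for 6 tumors allows. For normally distributed values chance does so for about 1 in 20 genes, and whether CPM values are so distributed was not checked. Of the 12560 tested genes 16.1% had such a tumor, so the members' share was near that of all genes. The value given is the gap to the nearest tumor divided by the range of the 6, in CPM. In tumor 1, the library that stood apart across all genes, the ratio was 0.812 for Selenbp1, 0.791 for Plod1 and 0.630 for Insig2, each time as the highest tumor. P4ha2 was highest in tumor 5 with a ratio of 0.742. Ankrd37 was lowest in tumor 6 with a ratio of 0.647, on 15 to 36 counts per tumor. The cause of these values was not tested.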

How the results depend on the processing

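The count of members past an adjusted p of 0.05 was 0 in every alternative, in both directions, so that keeping this side says nothing of a slope's stability. Over all genes that count, 0 in edgeR, was 17 above 0 and 2 below 0 with DESeq2, 10 above 0 without the filter and 2 below 0 without tumor 1. The 8 members with an unadjusted p under 0.05 were picked in these same tumors, so a direction kept in refits of them says little of its stability. They kept a slope above 0 in all 104 refits, of which 12 had an unadjusted p of at least 0.05. Without tumor 5 it was 0.104 for P4ha2, 0.0533 for P4ha1, 0.106 for Plod2, 0.101 for Ndrg1, 0.103 for Kdm3a and 0.127 for Fam162a. Bnip3 passed it without tumor 1 (0.00393). The number of members past that threshold ranged from 2 (without tumor 5) to 10 (without tumor 1) with each tumor left out. Among 195 slopes of 15 named genes, 5 reversed, each with 1 tumor left out. These were Plod1 (0.20 without tumor 1, 0.08 without tumor 5), Pfkfb4 (−0.88) and Stc1 (−0.48) without tumor 5, and Stc2 (−0.01 without tumor 2), and the cause was not tested. The slopes with a tumor left out reached −1.04 for Plod1, 1.13 for Pfkfb4, 0.44 for Stc1 and 0.84 for Stc2 at the other end. With each tumor left out, the median r between members ranged from 0.178 to 0.284, the median r with the score from 0.299 to 0.540 and the median coefficient of variation from 30.6% to 42.4%. The median r between members was 0.259 with CPM without TMM and 0.284 in the 4 tumors with the QAF prefix. The summed level of the members, with a median of 4159 CPM, was 5001 CPM without the 10 most abundant genes. No paired analysis was possible because the labels give 1 group. Depth limits Pfkfb4, Lox and Tmem45a, and 6 tumors limit every slope.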
